A study of Arabidopsis thaliana with 4 samples.

Results

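Calmodulin-like genes encode small calcium sensors, and 7 of them were identified on ATH1 expression arrays of *Arabidopsis thaliana* seedlings. They are the genes that the array's platform annotation gives as the only gene of a probe set and names CML with a number, namely CML23 (AT1G66400), CML30 (AT2G15680), CML37 (AT5G42380), CML38 (AT1G76650), CML41 (AT3G50770), CML42 (AT4G20780) and CML43 (AT5G44460). Each was read by 1 probe set, so 7 of the 22746 probe sets tested, and 7 of the 13286 loci that have a probe set of their own in that annotation, are described here. The 4 arrays hold RNA of whole seedlings, 2 arrays of the wild type Col and 2 of the ref6-1 mutant in the Col background. All plants were untreated and were harvested after 10 days on MS plates, a standard nutrient agar, kept at 23 °C under days of 16 h light and nights of 8 h. The labels call the 2 arrays of a genotype biological replicates but do not say how many seedlings were pooled. One mutant allele was used. REF6, also called JMJ12, removes methyl groups from lysine 27 of histone H3, a mark of repressed chromatin. The REF6 transcript itself was not analysed here, since the annotation used names no probe set for it, so the genotype given for each array has no such check.

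Calcium ions rise briefly in plant cells after touch, wounding, cold, pathogen contact and other stimuli. Calmodulin and the calmodulin-like proteins bind the ion through EF-hand motifs, change shape and then bind other proteins, which is how a calcium signal is passed on. Many CML genes are themselves induced quickly by such stimuli, and single family members have been linked to wounding and herbivory, low oxygen, immunity, trichome shape and flowering time.

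The 7 genes did not move one way in ref6-1. CML37 and CML23 rose, CML38 was higher without passing the test, and CML30, CML41, CML42 and CML43 were slightly lower without passing it. In ratios of mean intensity, CML37 was 1.91-fold, CML38 1.54-fold and CML23 1.46-fold the Col level, while the other 4 lay between 0.775 and 0.877 of it. By limma's adjusted p, 2 of the 7 genes were called higher and 0 lower. Over all probe sets tested, 0.774% were called higher, 0.708% lower and 1.48% in either direction. At an unadjusted limma p under 0.05 there were 3 higher genes and 1 lower gene among the 7, against 8.5% of all probe sets in either direction. In whole seedlings, a change in the share of cells that express a gene and a change in RNA per cell cannot be told apart.

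**Figure D1:**
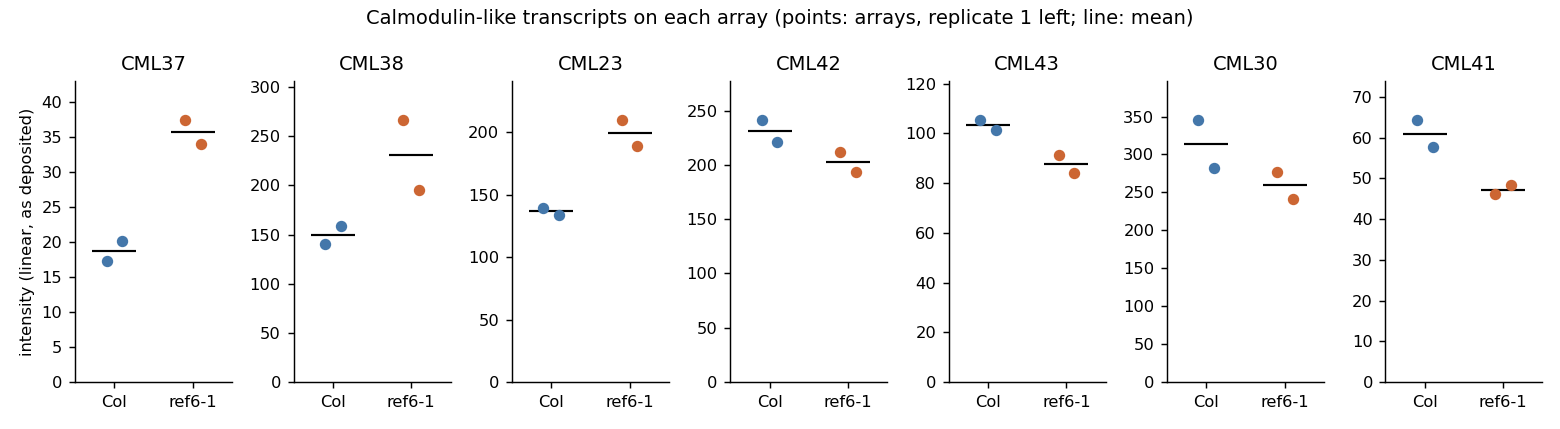
Intensity of each calmodulin-like transcript on the 4 arrays, on a linear scale from 0, with Col and ref6-1 side by side, replicate 1 to the left of replicate 2, and the mean as a line. CML37, CML38 and CML23 are higher on both ref6-1 arrays, and the other 4 genes are lower on both.

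CML37 is known as a positive regulator of jasmonate-dependent defence against insect herbivores. Its probe set read 17.3 and 20.2 on the Col arrays and 37.4 and 34.0 on the ref6-1 arrays. Both ref6-1 values were thus well above both Col values, and the closest pair of arrays of different genotype still differed 1.68-fold. In Col the mean was 18.7 ± 2.04 (SD, n = 2), and in ref6-1 it was 35.7 ± 2.44. On the scale used for the test, log2(intensity + 16), the log2 fold change was 0.57 (SE 0.109, 95% interval 0.33 to 0.82, limma adjusted p = 0.0327). The added 16 is nearly as large as the Col reading, so the fold on this scale is smaller than the plain ratio of intensities. Only 3.82% of all probe sets were dimmer in Col, and 12.9% were dimmer in ref6-1, so CML37 lay close to the low end of the array's range in the wild type. The files give no detection call, so how much of the Col reading is background is unknown, and the plain ratio is that of the deposited readings. The call was kept without Col replicate 2 (limma adjusted p = 0.0071) and lost without Col replicate 1 (0.0512), ref6-1 replicate 1 (0.141) or ref6-1 replicate 2 (0.0674).

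CML38 is a close relative of CML37 and is known for its induction by wounding and low oxygen. It read 140.2 and 159 in Col and 266 and 195 in ref6-1. Both mutant arrays were again above both wild-type arrays, but they differed from each other 1.37-fold, the widest spread between replicates of either genotype among the 7 genes. The log2 fold change of 0.56 (SE 0.140, 95% interval 0.25 to 0.88) was nearly that of CML37, and with the wider spread it did not pass (limma adjusted p = 0.112). It passed without Col replicate 2, at 0.64 (limma adjusted p = 0.0294), and without ref6-1 replicate 2, at 0.77 (limma adjusted p = 0.00421). Without ref6-1 replicate 1, the array with the higher reading, it was 0.35 (limma adjusted p = 0.415).

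AT1G76640, directly beside CML38 in the RefSeq gene order of assembly TAIR10.1, is not a CML gene by its platform name, but RefSeq lists CML39 among its synonyms. RefSeq also lists CML39 as a synonym of CML37, so the locus code is used here. It read 44.3 and 35.9 in Col and 52.1 and 43.4 in ref6-1, so the genotypes overlapped. Its log2 fold change was 0.19 (SE 0.121, limma adjusted p = 0.821), and its interval of -0.09 to 0.46 includes values close to that of CML23 as well as 0.

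CML23 acts together with its close relative CML24 in the control of flowering time and of nitric oxide levels. It read 139 and 134 in Col and 209.8 and 189 in ref6-1. The Col arrays were close to each other and both mutant arrays stood clearly above them, the closest pair differing 1.36-fold. The mean intensity was 137 ± 3.84 in the wild type and 199 ± 14.7 in the mutant (SD over 2 arrays). The log2 fold change of 0.49 (SE 0.102, 95% interval 0.27 to 0.72) passed narrowly, at a limma adjusted p of 0.0494. CML23 lost the call without any one of the arrays, with a limma adjusted p of 0.0648 without Col replicate 1, 0.0741 without Col replicate 2, 0.226 without ref6-1 replicate 1 and 0.0645 without ref6-1 replicate 2. It also lost it with the added constant at 64 (adjusted p = 0.0549) and with no intensity trend in limma (adjusted p = 0.0553), although the log2 fold change stayed between 0.39 and 0.56 under each of these.

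**Figure D2:**
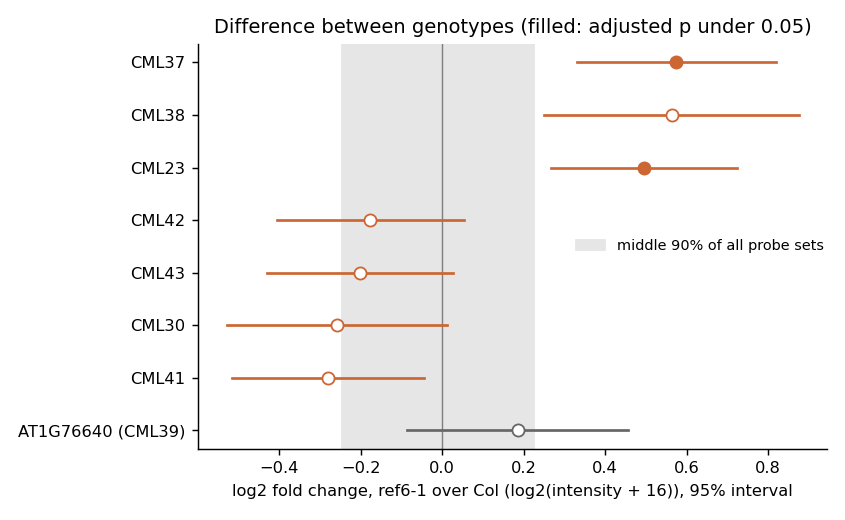
Log2 fold change of each gene, ref6-1 over Col, on the scale of log2(intensity + 16), with limma's 95% interval as a line and filled points for an adjusted p under 0.05. The grey band, from -0.25 to 0.22, holds the middle 90% of all probe sets; CML37, CML38 and CML23 lie to its right, and the 4 lower genes lie in it or just beyond its left edge.

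The 4 genes on the lower side had smaller differences. CML41, which is found at plasmodesmata and promotes callose deposition there during the response to flagellin, read 64.3 and 57.6 in Col and 46.3 and 48.3 in ref6-1. Its groups did not overlap, and its log2 fold change of -0.28 (SE 0.105) had an unadjusted limma p of 0.0239 and an adjusted p of 0.426. In mean intensity CML41 was 22.5% lower in ref6-1, which is the furthest below Col among the 7 genes.

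CML30, a family member found in mitochondria, read 345 and 283 in Col and 277 and 241 in ref6-1. The lower Col array and the higher ref6-1 array were almost level, with a ratio of 0.981, so the gap between the genotypes was smaller than that between the arrays of either one. The log2 fold change was -0.26 (SE 0.121, limma adjusted p = 0.630), and with only one Col array it was -0.12 (replicate 2 kept) or -0.40 (replicate 1 kept).

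CML42 is known for its part in trichome branching and as a negative regulator of herbivore defence, a role opposite in direction to that of CML37. It read 241 and 221 in Col and 211 and 194 in ref6-1. The log2 fold change of CML42 was -0.18 with an SE of 0.103 (limma adjusted p = 0.765). Its 95% interval of -0.41 to 0.05 includes 0. CML43, which has been linked to the hypersensitive response to pathogens, read 105 and 101 in Col and 91.5 and 84.2 in ref6-1. The groups of CML43 stood apart by more than the arrays within each, yet the log2 fold change was small, at -0.20 (95% interval -0.43 to 0.03, SE 0.102, limma adjusted p = 0.683).

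The genotypes did not overlap for any of the 7 genes, with both mutant arrays above both wild-type arrays for 3 genes and below them for 4. Over all probe sets tested this held for 35.6%, with 16.1% above and 19.5% below. The median log2 fold change of the 7 was -0.18, against -0.02 over all probe sets, and since no gene lies between -0.18 and 0.49, that median says nothing of the 3 higher genes. In size regardless of sign, the median log2 fold change was 0.28 for the 7 genes and 0.08 for all probe sets. All 7 were above the median size of all probe sets, and 3, namely CML37, CML38 and CML23, were above their 95th percentile of 0.32. The median SE was 0.105 for the 7 genes and 0.107 over all probe sets. Since limma draws the SEs of all probe sets towards a common trend, this closeness is partly built in and does not show equal precision. The 7 genes were chosen with earlier results of these data known, so the comparisons with all probe sets are description only. No test was made of the 7 genes as a group.

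**Figure D3:**
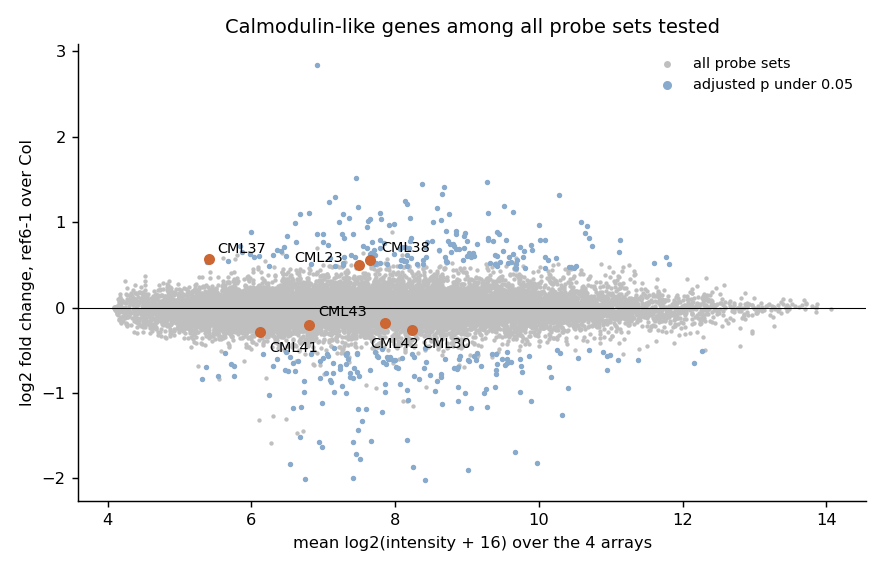
Log2 fold change, ref6-1 over Col, against mean log2(intensity + 16) for every probe set tested, with those at an adjusted p under 0.05 in blue and the calmodulin-like genes as labelled orange points. CML37 is dim and CML23 and CML38 are of middling intensity, and all 3 lie at the upper edge of the cloud.

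The arrays of one genotype also differed from each other. In ref6-1, replicate 1 read higher than replicate 2 for 6 of the 7 genes, all but CML41, against 47.3% of all probe sets. In Col, replicate 1 read higher for 5, all but CML37 and CML38, against 60.1% of all probe sets. The ratio of replicate 1 to replicate 2 ran from 0.857 to 1.22 in Col and from 0.959 to 1.37 in ref6-1. The labels give no batch, and the deposited values of the arrays were nearly level, with median intensities from 142.6 to 146.3. Taken over probe sets, which are no replicates of each other, log2 intensities correlated at 0.994 and 0.995 within the genotypes and at 0.988 to 0.994 between them. The leaf genes RCA and LHCB4.1, summed, read 24584 and 25757 in Col and 25438 and 26250 in ref6-1. The root hair genes EXPA7 and EXPA18, summed, read 308 and 277 in Col and 315 and 316.5 in ref6-1. These were 2 of 11 leaf and 2 of 12 root markers listed, the others not being named in the annotation used. The meristem gene CLV3, the only one named of 8 meristem and flower markers, read 33.4 and 33.8 in Col and 36.0 and 40.5 in ref6-1. None of these 5 markers passed the test, their limma adjusted p lying between 0.869 and 0.989, and their part in the results was not tested.

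The size of the fold change depended on how the low end of the scale was treated, and most for CML37. With 1 in place of 16 added to the intensities, the log2 fold change was 0.90 for CML37, 0.61 for CML38 and 0.54 for CML23. With 64 added it was 0.27, 0.46 and 0.39. CML37 thus had the highest value of the 3 with the small constant and the lowest with the large one, so their order by size of change is not fixed by these data. CML37 kept its call with both constants (limma adjusted p = 0.0349 and 0.0334). With 16 added, all 4 arrays and no further normalization, none of the 7 genes reached a log2 fold change of 0.6, which is 1.52-fold. After quantile normalization CML37 did, at 0.61. Leaving out Col replicate 2 (0.63) or ref6-1 replicate 2 (0.62) also brought CML37 past it, and brought CML38 past it at the values given above. In plain ratios of mean intensity CML37 and CML38 exceeded 1.52-fold and CML23 did not.

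With 16 added to the intensities, the profiles of CML37 and CML23 over the arrays were close to each other. As a measure of likeness, each probe set's 4 values of log2(intensity + 16) were centred on their mean, and the root mean square difference between profiles was taken over the 4 arrays. By this measure 56 of the other 22745 probe sets were closer to CML37 than CML23 was, at a difference of 0.0741, and 196 were closer to it than CML38, at 0.115. Seen from CML23, 85 probe sets were closer than CML37 and 420 closer than CML38. CML42, the nearest of the 4 lower genes to CML37, was at 0.385 from it. The likeness rests on 4 arrays, 2 per genotype, and any gene with a similar genotype difference scores well by it, so it is given as a description. It was taken with 16 added only, and for the dim CML37 it depends on that constant. The log2 fold changes of CML37 and CML23 were 0.90 and 0.54 with 1 added, and 0.27 and 0.39 with 64 added. Both pairs lie further apart than with 16 added.

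The 4 named genes most like CML37 were SRC2, named after a soybean gene regulated by cold, and AT2G43610, AT1G06620 and AT3G60420, at differences of 0.0302 to 0.0430. SRC2 read 2469 and 2684 in Col and 3773 and 3661 in ref6-1. Its log2 fold change was 0.53, with an SE of 0.0972 and a limma adjusted p of 0.0275. The genes most like CML23 were AT4G09150, AT3G60420, AT2G39650 and BETA-VPE, which encodes a vacuolar processing enzyme, at differences of 0.0242 to 0.0356. AT3G60420 was on both lists, with 78.5 and 80.9 in Col and 126 and 115 in ref6-1. Of these genes BETA-VPE did not pass the test, at a log2 fold change of 0.49 and a limma adjusted p of 0.0612, and the others passed. They were picked on the same arrays for profiles close to those of 2 called genes, so their passing is no separate result.

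None of the measured genes lying beside the calmodulin-like genes passed the test. In the RefSeq gene order, 11 of the 14 protein-coding genes flanking the 7 were measured by a probe set of their own. None was called by limma and none had an unadjusted limma p under 0.05, against 1.48% and 8.5% of all probe sets. With so few genes, finding none is near those shares and is no result about the flanking genes. The genotypes did not overlap for 3 of the 11, against 35.6% of all probe sets. Their log2 fold changes lay between -0.12 and 0.19, the highest being that of AT1G76640 beside CML38. SPP, beside CML37, read 244 and 265 in Col and 278 and 284 in ref6-1, and its log2 fold change was 0.14 (limma adjusted p = 0.849). On the other side of CML37, AT5G42370 had a log2 fold change of 0.08 (limma adjusted p = 0.945). Both genes flanking CML23 are among the 3 not analysed here.

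Other parts of the calcium pathway could be followed through the IQ-domain proteins and the glutamate receptor-like channels. The IQD proteins bind calmodulin through IQ motifs and associate with microtubules, and the GLR channels let calcium into the cell and carry wound signals between leaves. Of 15 IQD genes measured, none was called by limma in either direction and 1, IQD23, had an unadjusted limma p under 0.05. Over all probe sets these shares were 1.48% and 8.5%, so among 15 genes such counts are near them. The median log2 fold change of the 15 was 0.02, with a range of -0.19 to 0.34. IQD23 read 91.8 and 105 in Col and 139 and 119 in ref6-1. The log2 fold change of IQD23 was 0.34, with an SE of 0.115 and a limma adjusted p of 0.340. Its groups did not overlap, as was so for 3 of the 15 IQD genes, against 35.6% of all probe sets.

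Of the 8 GLR genes measured, none was called by limma and none had an unadjusted limma p under 0.05. The shares over all probe sets were 1.48% and 8.5%, so finding none among 8 genes is near them. The genotypes did not overlap for 1 of the 8, against 35.6% of all probe sets. Their median log2 fold change was -0.02 and their range was -0.11 to 0.02. GLR1.2 had the smallest p of them, with 59.0 and 40.4 in Col and 39.5 and 49.0 in ref6-1, so its groups overlapped widely (limma adjusted p = 0.936). GLR3.3 and GLR3.6, which are the members best known for relaying wound signals, had log2 fold changes of -0.01 and -0.02. A difference between the calmodulin-like genes and these families was not tested. Calmodulins, calcineurin B-like proteins and their kinases, calcium-dependent kinases, calmodulin-binding transcription factors, calcium pumps and exchangers, annexins and the touch-induced TCH genes were also looked for, and 0 loci of them had a probe set of their own in the annotation used, so they are not analysed here.

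**Figure D4:**
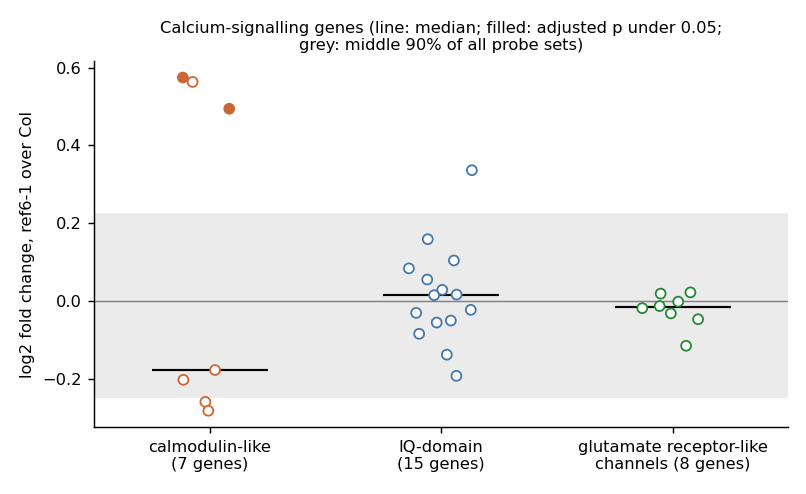
Log2 fold change, ref6-1 over Col, of each gene in 3 families of the calcium pathway, with the median as a line, filled points for an adjusted p under 0.05, and the middle 90% of all probe sets in grey. The calmodulin-like genes fall into 3 above and 4 below 0. The 15 IQD and 8 GLR genes lie around 0, with IQD23 alone above the band, and a difference between the families was not tested.

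Settings that changed a call concerned the 3 higher genes and CML30. Every one of the 7 genes kept its direction under each setting in which it was tested, 13 settings for CML23, CML30, CML38 and CML42, 12 for CML43, and 11 for CML37 and CML41, which are too dim to enter the fits without the dimmest probe sets. With 4 arrays these settings share most of their data. Which genes were called higher changed on leaving out any one array, where the lone array left in a genotype is assumed to vary like the other genotype.

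**Figure D5:**
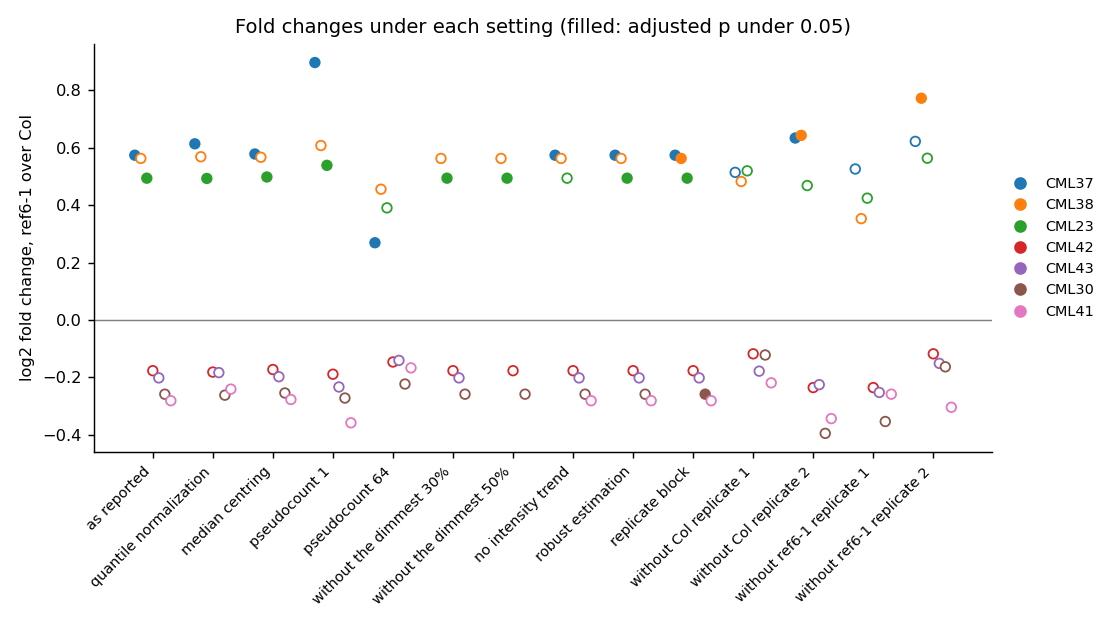
Log2 fold change, ref6-1 over Col, of each calmodulin-like gene under each setting, with filled points for an adjusted p under 0.05. The 3 higher genes stay above 0 and the 4 lower genes below 0 throughout, and CML37 spans 0.27 to 0.90 as the constant added to the intensities changes.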

How the data were processed

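Total RNA was extracted with Trizol and 10 ug were made into biotin-labelled cRNA, per the labels' protocols. The authors deposited a linear intensity for each probe set on each array. How probes were summarized, corrected for background and normalized is not stated in the labels, and if arrays were scaled to each other, a shift common to most genes would be lost. Of 22810 probe sets, 64 controls were left out. log2(intensity + 16) was fitted in limma 3.58.1 (R 4.3.3; lmFit, eBayes with an intensity trend), two-sided, over all 22746, with Benjamini-Hochberg adjustment and a threshold of 0.05; the total degrees of freedom, mostly lent by the other probe sets, had a median of 9.80. All adjusted p-values are limma's, and the fit was tested on simulated data. The number of arrays limits the precision.

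Names came from the platform annotation (13513 probe sets with a single gene, 503 with several, 8794 not listed, control probe sets included) and from RefSeq TAIR10.1, which matched 13436 of the first. No label states the array's genome build, and coordinates are therefore left out. The brightest probe set per locus was read. The genes and lists were chosen with earlier results of these data known. The named genes were all CML genes, per other list the called loci (at most 4) or the locus with the smallest p, and the 4 genes most like CML37 and like CML23. A cysteine proteinase that shares the symbol of an EF-hand protein was left out of its list after its match was seen. The flanking genes, and GLR3.3 and GLR3.6, were chosen after values were seen. Alternatives were quantile normalization, median centring, 1 or 64 in place of 16, filters on the dimmest 30% or 50%, no trend, robust estimation, a block for the replicate number, the loss of each array in turn, and a log2 fold of 0.6.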

Additional observations from a re-analysis of the deposited data

How the results depend on the processing

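The 2 genes called higher became 1 with 64 added (CML37), 1 without the dimmest 30% and 1 without the dimmest 50% of probe sets (CML23, with CML37 no longer tested), 1 without the intensity trend (CML37), 0 with a log2 fold of at least 0.6, and 0 to 2 on leaving out an array. The 7 genes with groups apart became 4, of 4 tested, without the dimmest 50%, where the median log2 fold change went from -0.177 to 0.159 because CML37, CML41 and CML43 dropped out; with 3 arrays it was -0.236 to -0.118. The 337 probe sets called became 273 to 533 with 3 arrays (533 without Col replicate 2), a lone array being assumed to vary like the other genotype. Under the replicate block the calls were 1636 over all probe sets, 3 CML genes higher and 1 lower (CML30, limma adjusted p = 0.0462), and CML38 had a limma adjusted p of 5.19e-07. That fit pooled the spread completely (22746 total degrees of freedom), so CML38's own wide spread did not enter. The labels give the numbers no shared batch, and with 2 pairs a correlation of 0.279 between the replicate differences across probe sets does not establish a pairing. Averaging probe sets per locus changes nothing, since each gene has 1. The unstated background correction limits what the dim CML37 can show.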
